A study of Strongylocentrotus purpuratus with 4 samples.

Results

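The dividing non-pigment cells of uninjected sea urchin embryos are described here: cells with few or no transcripts of 4 pigment genes that carried transcripts of genes used in S phase and mitosis. They were chosen by their counts of 8 cell cycle genes, among them LOC580943 (the cohesin subunit SMC1A), LOC574836 (the condensin subunit SMC2), LOC584095 (DNA polymerase alpha), LOC373260 (histone-binding protein N1/N2), LOC589199 (centromere protein C), LOC576796 (nucleolar and spindle-associated protein 1-A) and LOC578080 (rac GTPase-activating protein 1). The sum thus pools genes of S phase with genes of mitosis. A member held 400 to 2500 genes, less than 0.3% of its UMIs (the barcodes that tag single transcript molecules) in 4 pigment genes (LOC588806, LOC592500, LOC588371 and gcm), and at least 4 UMIs making up at least 0.2% of its UMIs in the 8 cell cycle genes. At 48 hours post fertilization (hpf) 673 of 4648 non-pigment cells were members, and at 72 hpf 473 of 5949, together 1146 of the 15698 cells kept in the whole series. They are compared with reference cells, the 3081 non-pigment cells at 48 hpf and 4620 at 72 hpf that stayed below both limits. The 8 genes that chose the cells are left out of every comparison of genes, and enter only the shares of cells past a limit.

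The study profiled Strongylocentrotus purpuratus embryos by droplet sequencing to ask which states pigment cells take and what the transcription factor gcm does in them. Uninjected embryos at 48 hpf (gastrulae) and at 72 hpf (early larvae) were dissociated so that ectoderm was enriched, and each stage gave 1 library. Whole gastrulae at 48 hpf gave 1 library each after injection of a control morpholino (MO), which is directed at a sea star gene, or of a translation-blocking gcm MO, and embryos with the phenotype of their group (albino for the gcm MO) were collected. The animals were wild type, fertilization or injection took place with 3-AT, and embryos were pooled, with no number of parents given in the sources used here. Stage, sequencing lane and library are the same split in the uninjected pair and cannot be told apart. With 1 library per condition there is no test between conditions, and cells of a library are not replicates. Every interval below is a 95% interval that covers counting error only, and all values of dividing against reference cells are descriptions.

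As background, a cell that divides first licenses and copies its DNA, packs the copies with new histones, then condenses and disentangles the chromosomes and pulls them apart on a spindle before cytokinesis. Cyclins and their kinases order these steps, and E2F factors switch many of the genes on and off. In the sea urchin embryo the skeleton-forming mesenchyme and much of the aboral ectoderm leave the cycle early, while the ciliary band, the mouth region and the gut keep dividing cells into larval life.

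The 48 hpf library held 5688 cells with a median of 2909 UMIs and the 72 hpf library 8178 cells with a median of 1136 UMIs. Dividing cells were deeper than reference cells, with medians of 3916 against 2911 UMIs at 48 hpf and 2878 against 1488 UMIs at 72 hpf, and the limit of 4 UMIs is easier to pass in a deep cell. Pigment genes made up 0.0190% of the UMIs of dividing cells and 0.0219% of those of reference cells at 48 hpf, and 0.00954% and 0.0165% at 72 hpf. The 2 uninjected libraries shared 16 cell barcodes, and 1 dividing cell at each stage had a barcode found in another library. Among cells with the highest 5% of Scrublet doublet scores were 4.31% (2.90 to 6.13) of dividing and 3.12% (2.53 to 3.79) of reference cells at 48 hpf, and 3.81% (2.27 to 5.95) and 4.42% (3.84 to 5.05) at 72 hpf.

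Dividing cells made up 14.5% (13.5 to 15.5) of non-pigment cells at 48 hpf and 7.95% (7.28 to 8.67) at 72 hpf. A further 894 and 856 cells passed only 1 of the 2 limits and belong to neither group. The members form a range rather than a separate type. Their median was 10 UMIs of the 8 genes at 48 hpf and 8 at 72 hpf, 29.1% and 29.8% of them lay between 0.2% and 0.25%, and 80 and 77 members had exactly 4 UMIs. Just outside lay 97 and 142 cells with 3 UMIs at 0.2% or more, and 270 and 201 cells with enough UMIs but 0.15% to 0.2%. When every cell with at least 1000 UMIs was thinned to 1000 UMIs, 26.4% (25.0 to 27.8) of 3824 cells at 48 hpf and 19.6% (18.4 to 20.9) of 4014 cells at 72 hpf had at least 2 UMIs of the 8 genes. The thinning left out 824 and 1935 shallower cells, 28 and 45 of them members. Among the cells that remained the unthinned rule gave 16.9% (15.7 to 18.1) and 10.7% (9.72 to 11.7), so the share was lower at 72 hpf in both counts. Of pigment cells, which are no members, 126 of 522 passed the same limits at 48 hpf and 28 of 717 at 72 hpf.

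Levels are given as CPM (counts per 1000000 UMIs) of the summed UMIs of a group of cells, with the Poisson interval in parentheses, and ratios are CPM in dividing over CPM in reference cells. Genes with at least 200 UMIs over both groups were compared, and a gene was called past 2-fold at a ratio of at least 2 or at most 0.5. At 48 hpf 4864 genes were compared, of which 696 (14.3%) were at least 2-fold higher and 696 (14.3%) at least 2-fold lower in dividing cells. At 72 hpf 507 of 4757 genes (10.7%) were higher and 673 (14.1%) lower. The median ratio over all genes compared was 1.06 at 48 hpf and 1.04 at 72 hpf.

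The cell cycle genes outside the rule accompanied the 8 that set it. The study listed 16 further cell cycle genes, picked in these same libraries for a difference among pigment cells and thus no independent list, and 14 of the 16 were at least 2-fold higher in dividing non-pigment cells at each stage, against the 14.3% and 10.7% of all genes given above. Summed, the 16 genes were at 5970 CPM in dividing and 939 CPM in reference cells at 48 hpf, and at 5707 and 1118 CPM at 72 hpf. The exceptions were PCNA-interacting partner, with ratios of 0.840 and 0.848, and tubulin alpha-1, with 2.90 against 5.47 CPM at 48 hpf (too few UMIs to be compared) and 41.9 against 64.2 CPM at 72 hpf.

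Several genes that act while DNA is copied had high ratios. SLBP, the stem-loop binding protein that processes and protects replication-dependent histone messages, was at 160 CPM (144 to 177) in dividing and 11.9 CPM (9.67 to 14.5) in reference cells at 48 hpf, and at 138 CPM (120 to 158) and 10.9 CPM (8.86 to 13.2) at 72 hpf. Its ratios were 13.5 (10.8 to 16.9) and 12.7 (9.97 to 16.3), the highest of any gene with a symbol at both stages. PCNA-associated factor (LOC100890576), which binds the sliding clamp at the fork, was at 644 and 768 CPM in dividing against 59.4 and 70.9 CPM in reference cells, a ratio of 10.8 at both stages. DNA ligase 1 (LOC752989), which joins the fragments of the lagging strand, was at 616 and 879 CPM against 65.8 and 88.4 CPM, with ratios of 9.36 (8.49 to 10.3) and 9.94 (9.10 to 10.9). Chromatin assembly factor 1 subunit A (LOC584359), which places histones on new DNA, had 831 CPM against 89.3 CPM at 48 hpf and 747 CPM against 86.3 CPM at 72 hpf, with ratios of 9.32 and 8.65. E2F8 (LOC100891325), a repressor of the E2F family, had ratios of 8.64 and 7.62. Cdc6, which licenses origins, had only 19 and 5 UMIs in dividing cells, too few for a comparison. The histone variant H2A.F/Z was at 3912 against 1430 CPM at 48 hpf and 3435 against 1017 CPM at 72 hpf, with ratios of 2.74 (2.66 to 2.81) and 3.38 (3.26 to 3.49). The 5 other histone genes of that list (H2A, H2B, H2B-1, h3 and H4) had 0 UMIs in dividing cells of both stages. H2A, H2B, H2B-1 and H4 had 0 UMIs in reference cells of both stages too, so these zeros say nothing about dividing cells.

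Condensation and mitosis genes were also higher, and for most of them the ratio was smaller at 72 hpf. Condensin-2 complex subunit H2 (LOC584403) had ratios of 9.96 (8.32 to 11.96) and 9.75 (8.37 to 11.4), and SMC4 (LOC592992), a core of both condensins, 6.91 and 7.51, so these did not shrink. DNA topoisomerase 2-alpha (LOC582001), which untangles sister chromatids, had 420 against 75.1 CPM at 48 hpf and 360 against 89.4 CPM at 72 hpf, with ratios of 5.59 (5.06 to 6.18) and 4.03 (3.61 to 4.50). The spindle assembly factor targeting protein for Xklp2 (LOC593807) had ratios of 6.57 (5.90 to 7.32) and 4.39 (3.93 to 4.89). Centromere protein F (LOC592172), a protein of the outer kinetochore, was at 744 CPM (710 to 779) against 137 CPM (129 to 145) at 48 hpf and at 496 CPM (461 to 534) against 157 CPM (149 to 165) at 72 hpf, with ratios of 5.43 and 3.16. KRP170 (LOC373241), the kinesin that keeps spindle poles apart, had ratios of 4.55 and 2.66, and anillin (LOC590990), a scaffold of the cleavage furrow, 5.12 and 3.54. KIF15, a second spindle kinesin, stayed at 6.56 (5.06 to 8.54) and 5.64 (4.47 to 7.10), and KATNA1, the microtubule-severing katanin subunit, had 2.44 (1.86 to 3.20) and 3.29 (2.50 to 4.32).

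Among the regulators, CDK1 (LOC575965), the kinase that drives mitosis, was at 964 CPM (925 to 1004) in dividing and 164 CPM (155 to 173) in reference cells at 48 hpf, and at 448 CPM (414 to 484) and 143 CPM (136 to 151) at 72 hpf. Its ratio went from 5.88 (5.50 to 6.29) to 3.13 (2.85 to 3.44), and the level in reference cells differed less between the stages than that in dividing cells. CycA, cyclin A, had 328 against 41.2 CPM and 300 against 45.1 CPM, with ratios of 7.96 and 6.65. Cyclin B (LOC576779) had ratios of 3.36 and 2.60, and cyclin-dependent kinase inhibitor 3 (LOC580574), a phosphatase of CDKs, 2.09 and 2.89. The G1 kinase cdk4 was the 1 of 6 listed cyclins, CDKs and regulators that did not pass 2-fold at either stage, at 102 CPM in dividing cells of both stages and ratios of 1.9999 and 1.67.

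**Figure D1:**
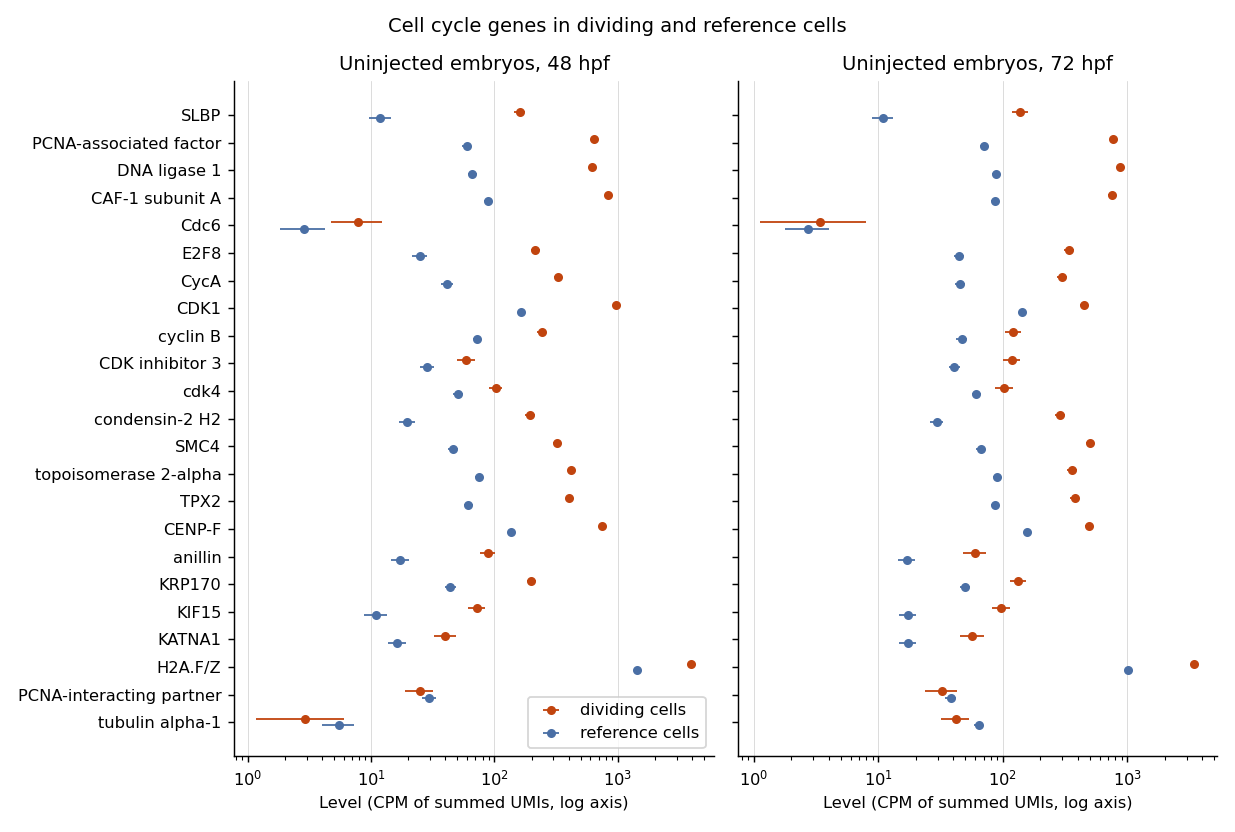
Level of 23 cell cycle genes in CPM (log axis) in dividing (orange) and reference (blue) cells at 48 hpf (left) and 72 hpf (right); bars are exact Poisson 95% intervals. All but PCNA-interacting partner and tubulin alpha-1 lie further right in dividing cells, SLBP by 13.5- and 12.7-fold.

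The values of these ratios depended on which cells the limits took in. The reference cells moved with the limits. With 8 UMIs and 0.4%, dividing cells of the main rule that fell below both new limits became reference cells. The same holds for the rule without LOC580943. With limits of 8 UMIs and 0.4% of the 8 genes, CDK1 had a ratio of 1.73 at 48 hpf and 2.07 at 72 hpf, so that the order of the stages turned, and without LOC580943 in the rule it had 3.53 and 3.23. With 8 UMIs and 0.4% centromere protein F had 1.92 at 48 hpf, while SLBP stayed at 10.1, and 9 of the 16 genes passed 2-fold. With all other non-pigment cells as the reference, CDK1 had 2.26 at 48 hpf and 1.98 at 72 hpf, and SLBP 6.93 and 6.73. In cells with at least 2000 UMIs the ratios were larger, 8.17 for CDK1 and 21.1 for SLBP at 48 hpf.

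Within the 2 groups single cells overlapped in the 16 genes. At 48 hpf these made up a median of 0.564% of a dividing cell's UMIs, with a 5th to 95th percentile of 0.236% to 1.05%, and 0.0434% of a reference cell's, where the 95th percentile was 0.726%. At 72 hpf the medians were 0.536% and 0.0691%. In all, 26.3% of dividing cells at 48 hpf and 29.4% at 72 hpf lay above the 95th percentile of reference cells. No UMI of the 16 genes was found in 5 and 7 dividing cells and in 937 and 1363 reference cells.

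Replication and mitosis transcripts were unevenly spread over the dividing cells. All cells were thinned to 1000 UMIs and sorted by whether they held a UMI of the replication list (Cdc6 and DNA ligase 1) and of the spindle list (centromere protein F, targeting protein for Xklp2, anillin, KRP170 and KIF15). Of 645 dividing cells at 48 hpf, 19.5% (16.5 to 22.8) held replication transcripts alone, 45.6% (41.7 to 49.5) spindle transcripts alone, 16.1% (13.4 to 19.2) both and 18.8% (15.8 to 21.99) neither. Of 428 dividing cells at 72 hpf, 25.0% (21.0 to 29.4) held replication transcripts alone, 36.7% (32.1 to 41.4) spindle transcripts alone and 22.2% (18.3 to 26.4) both. Of reference cells, 78.8% and 77.7% held neither. With wider sets chosen after seeing the data, 5 replication genes (adding SLBP, PCNA-associated factor and chromatin assembly factor 1 subunit A) and 6 mitosis genes (adding cyclin B), 46.2% and 43.5% of dividing cells held both. Replication transcripts alone were then held by 28.8% and 33.6% of dividing cells, and mitosis transcripts alone by 20.3% and 18.0%. Which kind was more often found alone thus depended on the sets of genes. The UMIs of these wider sets ran against each other over dividing cells, with Pearson's r of -0.36 and Spearman's rho of -0.40 over 645 cells at 48 hpf, and -0.36 and -0.37 over 428 cells at 72 hpf. Over all non-pigment cells Pearson's r was 0.05 and 0.03, and Spearman's rho was 0.22 and 0.19. Dividing cells were chosen by a sum over genes of both kinds, which by itself sets the 2 sets against each other, so the negative values are given as a description only, and no cell cycle phase was called.

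**Figure D2:**
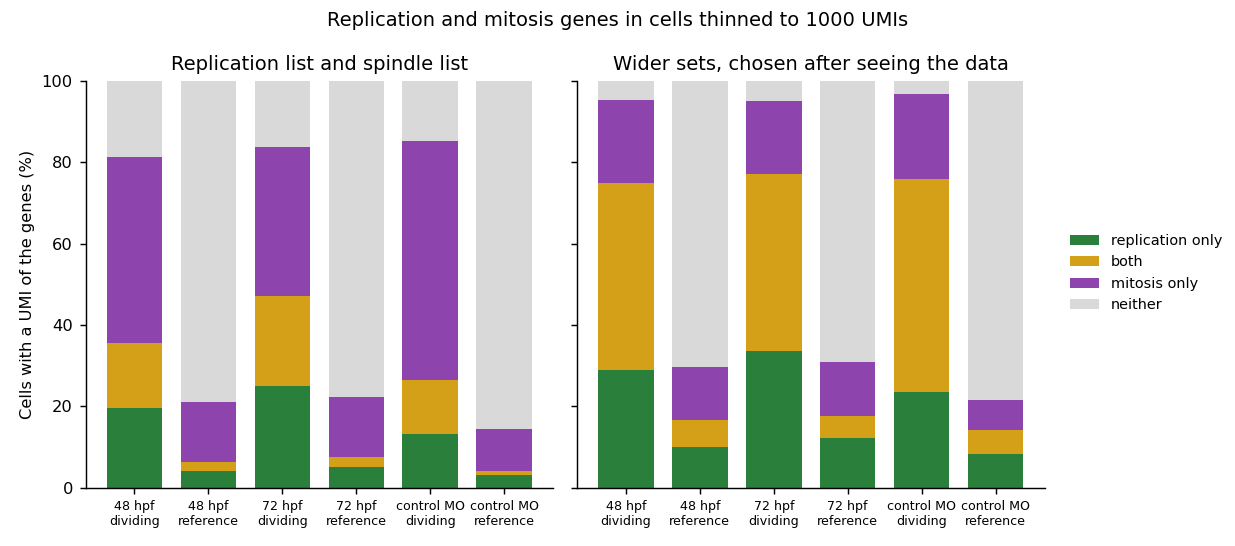
Share of cells (%) that held a UMI of replication genes alone (green), of both (yellow), of mitosis genes alone (purple) or of neither (grey), after thinning to 1000 UMIs, for dividing and reference cells of the uninjected stages and the control MO library. Left, the replication and spindle lists; right, the wider sets. Mitosis genes alone take 45.6% of dividing cells at 48 hpf and 36.7% at 72 hpf in the left panel, and 20.3% and 18.0% in the right panel. In the right panel replication genes alone take 28.8% and 33.6%.

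Summed aboral ectoderm transcripts were lower in dividing than in reference cells, at 7895 against 28223 CPM at 48 hpf and 6393 against 18091.5 CPM at 72 hpf. Of the 7 listed aboral genes with enough UMIs, 5 were at least 2-fold lower at 48 hpf and 6 at 72 hpf, and none higher, against 14.3% and 14.1% of all genes lower. The counts were the same at 1.5-fold, beside 23.5% and 24.8% of all genes. ARS, an arylsulfatase typical of aboral ectoderm, was at 6435 CPM (6334 to 6537) in dividing and 21467 CPM (21368 to 21566) in reference cells at 48 hpf, and at 4741 CPM (4630 to 4854) and 13836 CPM (13761 to 13911) at 72 hpf, with ratios of 0.2998 and 0.343. SPEC1, a calcium-binding protein of the same territory, had 1074 against 5556 CPM and 988 against 2851 CPM, with ratios of 0.193 and 0.347, and its relative spec2d 0.158 and 0.280. The homeobox gene Dlx had ratios of 0.207 and 0.328, and Hbox7 of 0.799 and 0.233. Tbx2/3, a T-box factor of aboral ectoderm, had 0.709 (0.623 to 0.806) and 0.902 (0.805 to 1.01). Per cell, ARS made up a median of 0.267% of UMIs in dividing and 1.54% in reference cells at 48 hpf and 0.158% and 0.817% at 72 hpf, and the groups overlapped widely, since the 95th percentile of dividing cells was 2.69% and 2.11%.

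The same contrast can be read the other way, as the share of cells past the thinned limit of 2 UMIs at each level of ARS. That limit counts the 8 genes of the rule, so these shares describe the chosen cells and are no support for the ratios. Among non-pigment cells with 0 ARS UMIs per 1000, 40.9% (36.2 to 45.8) of 418 cells at 48 hpf and 37.3% (33.0 to 41.7) of 496 at 72 hpf were past it. With 20 or more ARS UMIs the shares were 8.99% (7.58 to 10.6) of 1480 cells and 7.83% (6.18 to 9.76) of 919. At 3 to 9 ARS UMIs the stages differed, with 44.7% (41.0 to 48.5) at 48 hpf and 22.4% (19.5 to 25.6) at 72 hpf. Cells with 10 or more ARS UMIs were 24.1% of the cells past the limit and 61.9% of the other cells at 48 hpf, and 22.2% and 56.8% at 72 hpf. The median UMI counts of these bins before thinning ran from 3350 to 4065 at 48 hpf and from 1775 to 3678 at 72 hpf, where the bin of 3 to 9 ARS UMIs was the shallowest.

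Some genes of the ciliary band and of the oral and apical ectoderm were higher, and others were not. The homeodomain factor hnf6 (onecut), a gene of the ciliary band, was at 543 CPM (514 to 573) in dividing and 108 CPM (101 to 116) in reference cells at 48 hpf, and at 332 CPM (303 to 363) and 154 CPM (146 to 162) at 72 hpf, with ratios of 5.01 (4.60 to 5.46) and 2.16 (1.94 to 2.39). Read the other way, again with the 8 genes of the rule and as a description only, the share of cells past the thinned limit was 21.7% (20.3 to 23.2) with 0, 46.6% (41.6 to 51.8) with 1 and 59.2% (52.3 to 65.8) with 2 or more hnf6 UMIs per 1000 at 48 hpf, and 16.96%, 33.6% and 36.9% at 72 hpf. Within cells with fewer than 10 ARS UMIs it was 55.0% (50.5 to 59.5) with and 36.8% (34.2 to 39.4) without hnf6 at 48 hpf, and 36.5% (32.4 to 40.8) and 28.3% (26.1 to 30.7) at 72 hpf. With all other non-pigment cells as the reference the ratio of hnf6 was 3.03 at 48 hpf and 1.75 at 72 hpf.

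FoxG, a forkhead factor of the ciliary band, had 134 against 71.7 CPM at 48 hpf and 172 against 68.6 CPM at 72 hpf, with ratios of 1.87 (1.63 to 2.15) and 2.50 (2.15 to 2.90). Of the other oral and ciliary band genes, otx had ratios of 1.28 and 0.880 and BMP2/4, the signal that specifies aboral fate, 0.972 and 0.422. In that list 1 of 5 genes was higher at 48 hpf, beside 14.3% of all genes, and 2 of 4 were higher and 1 lower at 72 hpf, beside 10.7% and 14.1%. NK2.1, an apical homeobox gene, was at 316 against 93.2 CPM and 132 against 55.2 CPM, with ratios of 3.39 (3.07 to 3.75) and 2.39 (2.01 to 2.82). Without LOC580943 in the rule, an alternative added after seeing the data, NK2.1 at 72 hpf had 1.75 and FoxG 1.78. The apical forkhead gene foxq2 had a ratio of 2.53 (2.17 to 2.96) at 48 hpf and was down to 2 and 12 UMIs in the 2 groups at 72 hpf. SoxB2 stayed near 1, at 1.34 and 0.934, and prox1 (LOC576148) was lower, at 0.426 (0.261 to 0.666) and 0.566 (0.470 to 0.676). The transcription factor gene dri, outside these lists, had 1550 against 492 CPM at 48 hpf and 305 against 156 CPM at 72 hpf, with ratios of 3.15 and 1.96.

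**Figure D3:**
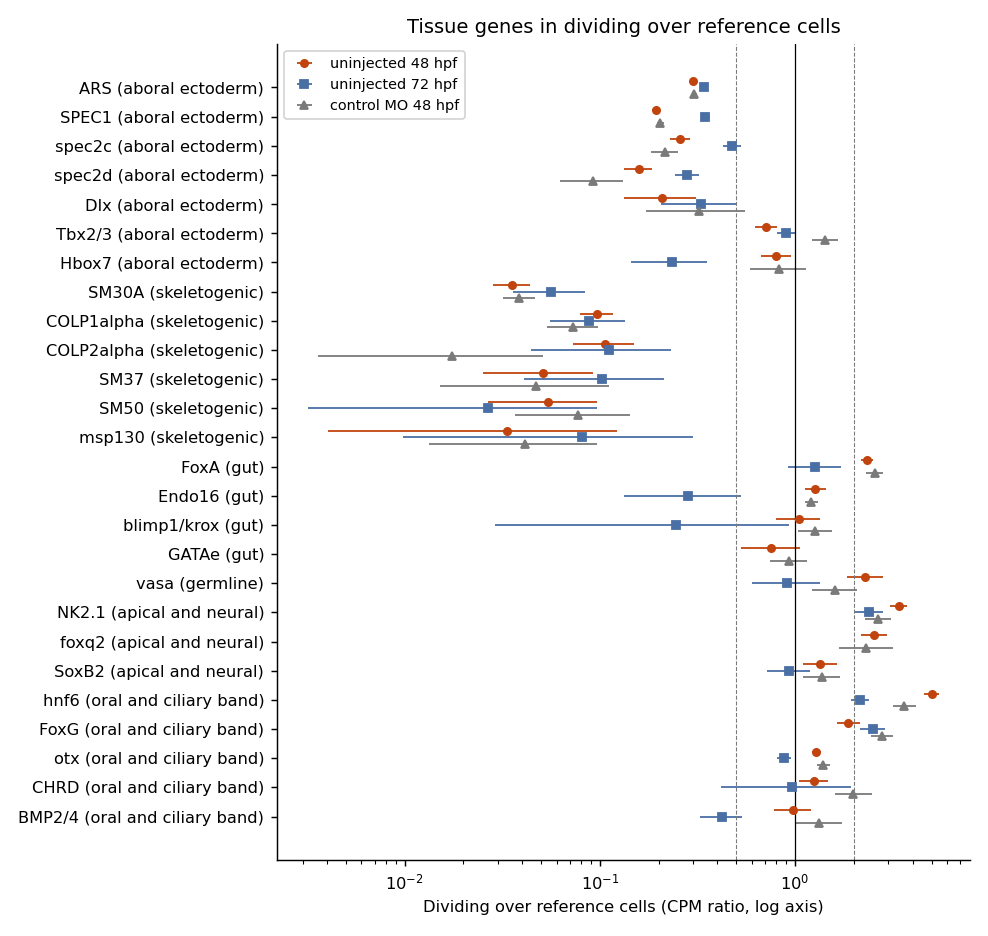
Ratio of dividing over reference cells (log axis) for tissue genes at 48 hpf (orange circles), 72 hpf (blue squares) and in the control MO library (grey triangles), with exact conditional 95% intervals; the dashed lines mark 2-fold and genes with under 50 UMIs or 0 UMIs in dividing cells are not drawn. Aboral genes such as ARS (0.2998 and 0.343) and skeletogenic genes lie on the left, hnf6 (5.01 and 2.16) and NK2.1 on the right.

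**Figure D4:**
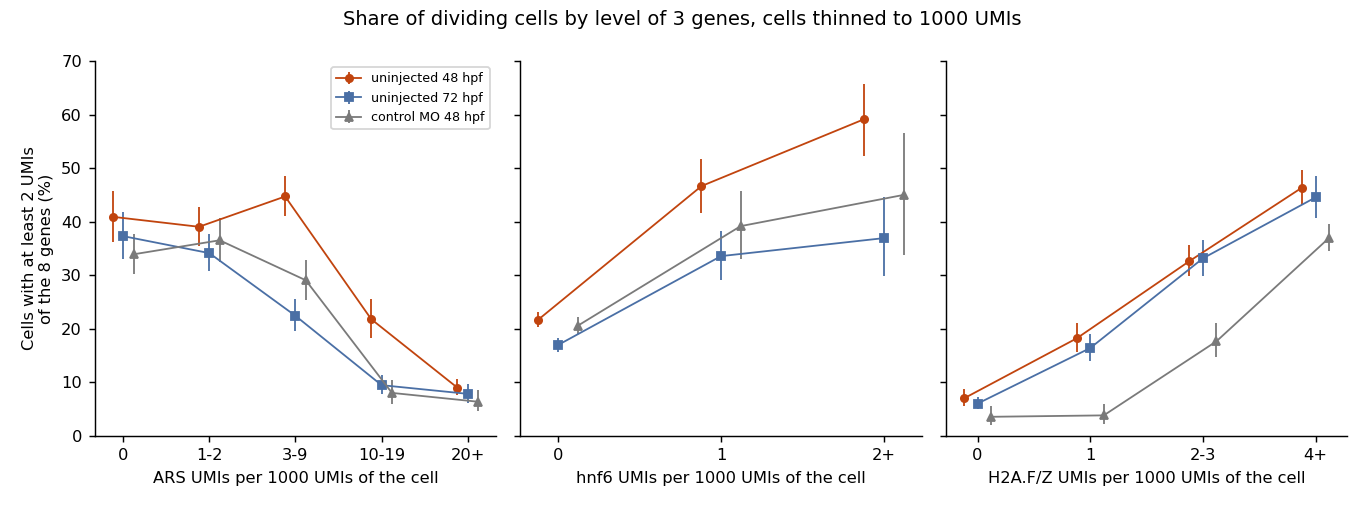
Description, with no independent measure, of the share of non-pigment cells (%) with at least 2 UMIs of the 8 genes of the rule, by UMIs of ARS, hnf6 and H2A.F/Z per 1000 UMIs, at 48 hpf (orange), 72 hpf (blue) and in the control MO library (grey), with Clopper-Pearson 95% intervals. The share goes from 40.9% to 8.99% over the ARS bins and from 21.7% to 59.2% over the hnf6 bins at 48 hpf.

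Skeletogenic transcripts were at a low level. All 6 listed genes with enough UMIs at 48 hpf and all 5 at 72 hpf were at least 2-fold lower, beside 14.3% and 14.1% of all genes. SM30A, a spicule matrix protein, had 87 UMIs or 36.1 CPM (28.9 to 44.5) in dividing and 8597 UMIs or 1022 CPM (1000 to 1044) in reference cells at 48 hpf, and 24 UMIs or 16.5 CPM against 293 CPM at 72 hpf, with ratios of 0.0353 and 0.0562. The collagen genes COLP1alpha and COLP2alpha had ratios of 0.0965 and 0.106 at 48 hpf and 0.0883 and 0.111 at 72 hpf. COLP4alpha, the sum of 2 entries of that symbol, had 6 UMIs in dividing cells at 48 hpf and 0 at 72 hpf, where it was at least 13.4-fold lower than the 27.6 CPM of reference cells. No UMI of the 7 listed genes was found in 74.7% of dividing and 75.8% of reference cells at 48 hpf, and in 89.0% of each at 72 hpf. The share of cells with a UMI thus differed little between the groups, and the 95th percentile of these genes' share of UMIs was 0.0624% in dividing and 0.183% in reference cells at 48 hpf. Cells were not thinned for these shares. Dividing cells were deeper at both stages, and a UMI is easier to find in a deep cell. The part of free RNA in these UMIs was not tested.

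At 48 hpf FoxA, a transcription factor of the gut and mouth, was at 563 CPM (534 to 594) in dividing and 242 CPM (231 to 252) in reference cells, a ratio of 2.33 (2.18 to 2.50), while Endo16, a secreted protein of the midgut, had 1.27 (1.12 to 1.43), blimp1/krox 1.04 (0.803 to 1.34) and GATAe 0.755 (0.527 to 1.06). The FoxA ratio at 48 hpf was 1.67 against all other non-pigment cells, 1.84 without LOC580943 in the rule and 1.96 with limits of 8 UMIs and 0.4%. The Endo16 ratio at 48 hpf turned to 0.594, 0.460 and 0.968 under these alternatives, and to 0.798 without the highest Scrublet scores. At 72 hpf only 67 UMIs of the 4 genes were left in dividing cells. FoxA had 52 of them and a ratio of 1.27 (0.923 to 1.71), and Endo16 had 10 and a ratio of 0.282 (0.133 to 0.528). The preparation enriched ectoderm at both stages, and its part in these levels was not tested. The germline helicase vasa had 62.6 CPM (53.0 to 73.4) against 27.3 CPM (23.9 to 31.1) at 48 hpf, a ratio of 2.29 (1.85 to 2.82), and 20.6 CPM against 22.6 CPM at 72 hpf, a ratio of 0.913 (0.601 to 1.34). With limits of 8 UMIs and 0.4% the 48 hpf ratio of vasa was 1.27, and with all other non-pigment cells as the reference 1.80.

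The 3 ribosomal protein genes with a symbol summed to 14547 CPM in dividing and 8471 CPM in reference cells at 48 hpf and to 15568 and 8236 CPM at 72 hpf, with ratios of 1.72 (1.70 to 1.74) and 1.89 (1.86 to 1.92). All 3 were past 1.5-fold at both stages, as were 28.5% of all genes at 48 hpf and 24.7% at 72 hpf. In the control MO library all 3 were also past 1.5-fold, as were 22.5% of all genes there. rps15a was at 7004 against 3949 CPM and 6903 against 3452 CPM, with ratios of 1.77 and 2.00, rps14 had 1.70 and 1.80, and rpl36 1.63 and 1.82. Per cell, the 3 genes made up a median of 1.44% of UMIs in dividing cells at both stages and 0.737% and 0.733% in reference cells. Of 5 translation factors compared, none passed 2-fold at 48 hpf and 2 did at 72 hpf, beside 14.3% and 10.7% of all genes. They were the helicase eif4a, with ratios of 1.84 (1.58 to 2.13) and 2.59 (2.16 to 3.098), and the elongation factor eef1G, with 1.91 and 2.03, while the poly(A)-binding protein pabp had 1.20 and 0.925 and the translation inhibitor 4e-bp 1.30 and 0.883. Of the cilia genes none passed 2-fold, and the kinesin-2 motor subunit KRP95 had ratios of 1.57 (1.25 to 1.98) and 1.80 (1.45 to 2.21).

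The metallothionein MTa, a small metal-binding protein, was lower in dividing cells. It took 4.08% of all UMIs of reference and 0.567% of those of dividing cells at 48 hpf, and 10.7% and 2.56% at 72 hpf, with ratios of 0.139 (0.137 to 0.141) and 0.239 (0.236 to 0.241). A transcript this abundant lowers the CPM of every other gene in reference cells. With MTa left out of the totals, an alternative added after seeing the data, the summed ratio of the ribosomal proteins was 1.66 and 1.73. A second metallothionein, MTB1, had ratios of 0.512 and 0.710. Of the chaperones, hsp110 was higher, with 2.01 (1.76 to 2.29) and 1.99 (1.67 to 2.38), and Gp96, the chaperone of the endoplasmic reticulum, lower, with 0.246 (0.146 to 0.392) and 0.253 (0.114 to 0.488).

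Among all genes compared, LOC579588 had the highest ratio at both stages, 14.8 (11.9 to 18.6) and 13.4 (10.7 to 16.8), at 178 and 171 CPM in dividing cells. LOC586702, with 13.7 and 12.5, was among the 10 highest at both stages. Neither has a name in the sources used here. Of the 10 highest genes 3 had a name or a symbol at 48 hpf (SLBP, PCNA-associated factor and condensin-2 complex subunit H2) and 2 at 72 hpf (SLBP and PCNA-associated factor). Of the 10 lowest 1 had a symbol at each stage, COLP4alpha, and LOC575608 was among them at both stages, with 6 UMIs in dividing cells against 1020 in reference cells at 48 hpf and 0 against 293 at 72 hpf.

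The contrast was much alike at the 2 stages, although the ratios at a stage share no cells with those at the other. Of 4213 genes compared at both, 545 were at least 2-fold higher at 48 hpf and 440 at 72 hpf, and 338 at both, which is 62.0% of the first and 76.8% of the second list. Lower at both were 422 genes, 69.1% and 80.1% of the lists of 611 and 527. Spearman's rho of the ratios was 0.83 over these genes, which are not independent of each other. The gene LOC590579 was past 2-fold in opposite directions, with 2.05 and 0.472, and so was LOC574612, with 0.299 and 3.04.

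**Figure D5:**
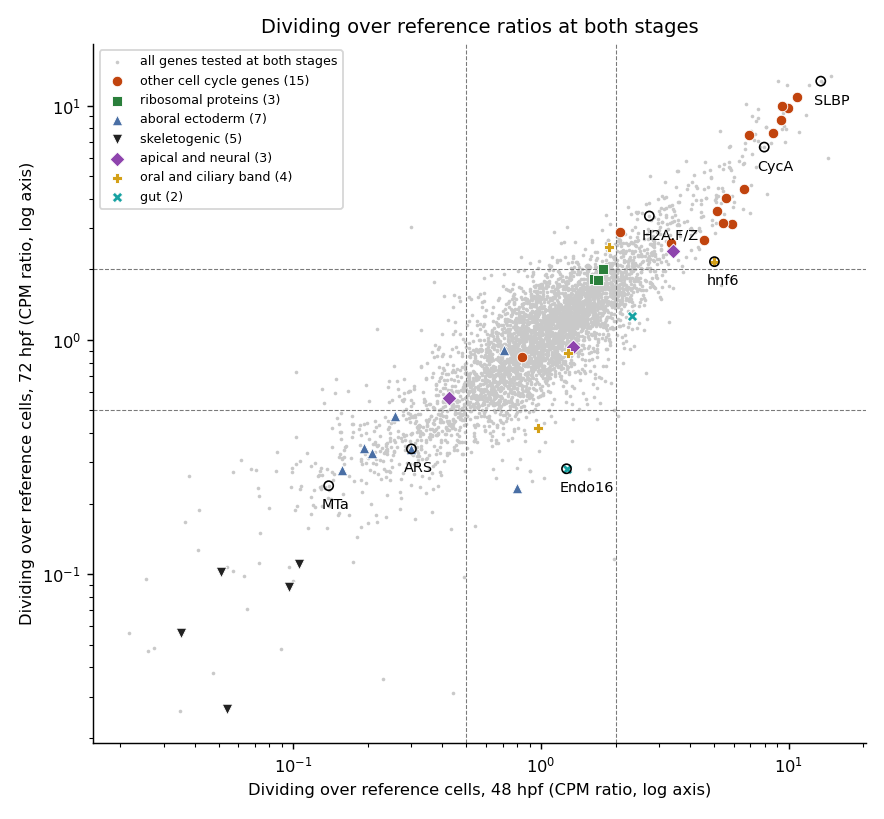
Ratio of dividing over reference cells at 48 hpf (horizontal) and 72 hpf (vertical), both on log axes, for 4211 of the 4213 genes compared at both stages (2 with 0 UMIs are not drawn), with listed genes coloured and 7 genes ringed and named; the dashed lines mark 2-fold. Most genes lie along the diagonal, cell cycle genes at the top right and skeletogenic genes at the bottom left, while Endo16 (1.27 and 0.282) lies off it at these settings. Its 48 hpf ratio was 0.460 to 0.968 under 4 alternatives.

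Within dividing cells most of the genes compared stayed within 2-fold between the stages. Of 2480 genes with at least 200 UMIs over the dividing cells of both stages, 134 (5.4%) were at least 2-fold higher and 230 (9.27%) at least 2-fold lower at 72 hpf. In reference cells 107 and 179 of the same genes were, and 70 and 116 were past 2-fold the same way in both. The summed replication genes (the wider set) were at 2260 CPM in dividing cells at 48 hpf and 2535 CPM at 72 hpf, a ratio of 72 over 48 hpf of 1.12 (1.08 to 1.17), beside 1.13 (1.07 to 1.20) in reference cells. The summed mitosis genes were at 1749 and 1284 CPM, a ratio of 0.734 (0.695 to 0.775), beside 1.09 (1.04 to 1.15) in reference cells. Without LOC580943 in the rule those ratios in dividing cells were 1.02 and 0.937, and the stage calls were 77 and 124 genes. That rule took in fewer cells, which leaves fewer genes to compare, so these counts cannot be set directly against 134 and 230.

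Single regulators moved in both directions between the stages. FoxA went from 563 to 35.7 CPM, a ratio of 0.0633 (0.0471 to 0.0836), beside 0.116 (0.102 to 0.132) in reference cells. foxq2 went from 120 to 1.37 CPM, dri from 1550 to 305 CPM with a ratio of 0.197, and the Notch target Hes from 141 to 38.4 CPM with 0.273. The growth factor FGF went from 250 to 94.0 CPM, a ratio of 0.376 (0.310 to 0.454), beside 0.948 (0.864 to 1.04) in reference cells. Higher at 72 hpf were the elongation factor eef1Bb, from 31.9 to 164 CPM with a ratio of 5.14 (3.96 to 6.73), beside 4.38 (3.71 to 5.19) in reference cells, and MTa, from 5671 to 25634 CPM. Tbx2/3 had a ratio of 72 over 48 hpf of 2.06 in dividing and 1.62 in reference cells. The homeobox gene hox1 went from 41.9 to 110 CPM in dividing cells, a ratio of 2.62 (2.03 to 3.40), and from 281 to 161 CPM in reference cells, a ratio of 0.572 (0.536 to 0.610). Among all genes LOC579576, without a name, had 0 UMIs in dividing cells at 48 hpf and 195 CPM at 72 hpf, and LOC589852 went from 116 to 0.686 CPM.

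The same rule gave 439 dividing cells, 14.1% (12.9 to 15.4) of 3117 non-pigment cells, in the control MO library of whole gastrulae, and 76 of 532, 14.3% (11.4 to 17.6), with the gcm MO. In the control MO library 325 of 3871 genes (8.4%) were at least 2-fold higher and 511 (13.2%) at least 2-fold lower, and 12 of the 14 cell cycle genes with enough UMIs were among the higher. SLBP had a ratio of 8.67 (6.77 to 11.2) and DNA ligase 1 of 6.39 (5.49 to 7.44), beside 13.5 and 9.36 in uninjected cells of that age. CDK1 had 9.41 (8.75 to 10.1), centromere protein F 9.003 (8.13 to 9.99) and anillin 11.3 (7.87 to 16.6), beside 5.88, 5.43 and 5.12. ARS, at 0.304 (0.296 to 0.313), NK2.1, at 2.67 (2.27 to 3.12), FoxA, at 2.56 (2.32 to 2.83), and hnf6, at 3.62 (3.17 to 4.14), lay on the same side of 1 as in the uninjected library. Tbx2/3, at 1.42 (1.22 to 1.66), and the metallothionein MTB1, at 1.45 (1.33 to 1.58), were among the genes on the other side. Of 6 aboral genes compared there 4 were past 2-fold lower, and the same number past 1.5-fold, as were 22.3% of all genes. The library differs from the uninjected one in injection, tissue preparation and sequencing lane, and these cannot be told apart.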

How the data were processed

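The authors dissociated embryos, made droplet libraries with the Chromium Single Cell 3' v3 kit and counted UMIs with Cell Ranger, using a custom reference of the Spur_4.2 genome. The deposited counts are whole UMIs of 32262 genes per cell, with no normalization. The methods also name Seurat 3.1.4, which was not used here. Names come from the files (341 genes have a symbol) and, for 24 LOC genes, from Supplementary file 2, and the RefSeq table of Spur_5.0 served to check symbols only. The members and lists were chosen with earlier results of these data known.

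Cells with 400 to 2500 genes were kept. UMIs were summed over the cells of a group and given as CPM with exact Poisson intervals, ratios with exact conditional binomial intervals and shares with Clopper-Pearson intervals, all at 95% (scipy 1.17.1 and pandas 2.3.3 under Python 3.11.15). A count of 0 was given an upper limit of 3 counts. UMIs of 1 gene do not fall independently on cells, so true errors are wider. Depth was 17172515 UMIs at 48 hpf, 16804569 at 72 hpf and 9454334 with the control MO. Thinning drew 1000 UMIs per cell without replacement. Doublets were scored with Scrublet (scanpy 1.11.5) and kept. The code was tested on simulated counts. Genes named are, at each stage, from the 10 highest and 10 lowest ratios among genes with at least 200 UMIs, the listed cell cycle genes, the 3 members of each other list with the most UMIs, the 5 highest and 5 lowest stage changes, and ARS, Endo16, vasa, GATAe, blimp1/krox, COLP1alpha and COLP2alpha. Of IDs without a name at most 2 a side are given. Further list members, dri, Hes, FGF, hox1, eef1Bb and the genes of the closing observations were picked after their values were seen. Nucleotide synthesis, DNA repair, nucleolar and mitochondrial lists had no member with a name and were not analysed here, and some items withheld for evaluation are not reported here.

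Alternatives were other limits on genes, on the 8 genes, on pigment genes and on UMIs, removal of the highest Scrublet scores, means of per-cell shares, and all other non-pigment cells as reference. Where the rule changed, the reference cells were drawn anew below both of its limits. Chosen after seeing the data were MTa left out of totals, LOC580943 left out of the rule, cells with shared barcodes left out, and the wider replication and mitosis sets.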

Additional observations from a re-analysis of the deposited data

Results flagged for a closer look

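The 4 genes given here came from 2 screens. Endo16 and otx are listed genes whose ratios lay on opposite sides of 1 at the 2 stages, with intervals that did not reach 1. LOC574612 and LOC590579 were past 2-fold in opposite directions among the 4213 genes compared at both stages. Genes outside the lists were not screened by their intervals. The difference between the stages was not tested, since each stage is 1 library. Endo16, the secreted midgut protein, had a ratio of 1.27 at 48 hpf and 0.282 at 72 hpf, where 10 UMIs were left in dividing cells. Its 48 hpf ratio fell below 1 under 4 alternatives, to 0.460 without LOC580943 in the rule, 0.594 against all other non-pigment cells, 0.798 without the highest Scrublet scores and 0.968 with 8 UMIs and 0.4%, so the opposite directions depend on these choices. The homeobox gene otx had 1.28 at 48 hpf and 0.880 at 72 hpf. LOC574612 had 0.299 and 3.04. It went from 122 to 204 CPM in dividing cells and from 407 to 66.9 CPM in reference cells. LOC590579 had 2.05 and 0.472, with 177 and 174 CPM in dividing cells and 86.4 and 369 CPM in reference cells. Both LOC genes are without a name in the sources used here. The intervals cover counting error only.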

How the results depend on the processing

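Single ratios were followed under the alternatives for a selection of 65, of chosen genes and of list sums. Of these, 50 were past 2-fold, none of them changed direction, and 36 stayed past 2-fold under every alternative. The other genes called past 2-fold were followed by their counts only. The share of dividing cells, 14.5% at 48 hpf and 7.95% at 72 hpf, became 8.07% and 4.08% without LOC580943 in the rule, 16.6% and 10.3% from 3 UMIs, 1.31% and 0.756% from 8 UMIs and 0.4%, 16.6% and 11.6% in cells with at least 2000 UMIs, 26.4% and 19.6% after thinning, and 6.63% at 72 hpf from 200 genes. Genes higher numbered 1385 and 1175 at 1.5-fold, 184 and 124 from 1000 UMIs, 1589 and 1353 from 50 UMIs, and 437 at 48 hpf as means of per-cell shares. Genes lower numbered 1145 and 1182 at 1.5-fold, 267 and 247 from 1000 UMIs, 1303 and 1304 from 50 UMIs, and 1150 at 72 hpf with 8 UMIs and 0.4%, where 9 of the 16 genes were higher at 48 hpf. The summed ribosomal ratio, 1.72 and 1.89, was 1.64 and 1.70 without LOC580943, 1.66 and 1.73 without MTa, 1.5004 and 1.70 with 8 UMIs and 0.4%, 1.79 and 2.00 in cells with at least 2000 UMIs, 1.75 at 48 hpf without the highest Scrublet scores, 1.58 and 1.66 as means of per-cell shares, and 1.46 and 1.61 against all other non-pigment cells. Stage calls numbered 77 higher and 124 lower genes without LOC580943, and 14 and 15 with 8 UMIs and 0.4%. Under both settings fewer cells leave fewer genes to compare. With 8 UMIs and 0.4% the summed replication genes of dividing cells were at 0.963 of their 48 hpf level in place of 1.12. With the wider sets 46.2% and 43.5% of dividing cells held both kinds of transcript. No paired analysis was possible because each group is 1 library and the replicate numbers only name it. At 72 hpf the gut, germline and skeletogenic lists had 67, 30 and 65 UMIs in dividing cells, which limits their ratios.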

Other observations

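Further genes with a symbol, picked after their values were seen, also differed. Higher in dividing cells were REJ9, of a family of sea urchin sperm receptor for egg jelly proteins, with 97.4 against 25.2 CPM at 48 hpf and 350 against 109 CPM at 72 hpf, and pkd2, a polycystin channel, with ratios of 2.097 and 2.52. The secreted protease BMP1 had 192 against 89.4 CPM and 160 against 68.4 CPM, with ratios of 2.15 and 2.34. The histone deacetylase HDAC1 had 2.12 at 48 hpf and 1.47 at 72 hpf. FGF had a ratio of 2.36 at 48 hpf and of 0.938 at 72 hpf.

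Lower in dividing cells were FSCN1, fascin, which bundles actin, with 679 against 2150 CPM and 859 against 2020 CPM and ratios of 0.316 and 0.425, and Sdc, the proteoglycan syndecan, with 0.475 and 0.482. Calreticulin (calret) had 0.290 and 0.600, and ECaSt/PDI, a protein of the endoplasmic reticulum lumen, 0.282 and 0.375. The transcription factor genes NK2.2 and Klf7 had ratios of 0.305 and 0.286 at 48 hpf and of 0.324 and 0.2997 at 72 hpf. Of all genes with a symbol that were compared, 21 of 132 were higher and 39 lower at 48 hpf, and 18 and 39 of 133 at 72 hpf, beside 14.3% and 14.3% of all genes at 48 hpf and 10.7% and 14.1% at 72 hpf.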
